A study of Mus musculus with 11 samples.

Results

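The genes described here encode the machinery that licenses, starts and carries out DNA replication, from the origin recognition complex to the factor that loads histones behind the fork. They were 48 genes chosen by symbol out of 24421 in the count table, and all 48 were found through their Entrez identifiers. The data set held 11 RNA-seq libraries of mouse oocytes held at metaphase II of meiosis (MII) and of 2-cell embryos, with or without the histone chaperone gene Daxx. The questions the design poses are how the level of these genes changes from oocyte to embryo and whether it changes when the mother's Daxx is deleted.

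All females carried 2 floxed Daxx alleles (Daxx f/f) on a mixed C57BL/6J and 129/Sv background and were over 8 weeks old. Knockout females also carried the transgene Zp3-cre, in which a promoter active in growing oocytes drives Cre, and control females did not. The genotype comparison therefore pairs loss of Daxx with presence of the transgene. Ovulation was induced with 5 IU PMSG and 5 IU hCG, and oocytes were taken 20 hours after hCG. Embryos came from in vitro fertilisation of such oocytes with sperm of 8-week-old JF1 males, selection of zygotes with both pronuclei, and culture in KSOM to 33 hours after fertilisation. Control embryos are labelled m+z+, and embryos of knockout females are labelled m-z+, lacking the maternal product while carrying a paternal allele. There were 3 control oocyte, 3 knockout oocyte, 3 control embryo and 2 maternal knockout embryo libraries, the last being replicates 2 and 3, and each library was a pool of 50 cells or embryos from 2 to 3 females.

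Replication is prepared when the origin recognition complex (ORC), CDC6 and CDT1 load the MCM2-7 ring onto DNA, a step called licensing that geminin blocks by binding CDT1. The kinases CDC7-DBF4 and CDK2 with cyclin E then bring CDC45 and GINS to the ring, which makes it an active helicase. Primase and polymerase alpha start the new strands. Polymerases delta and epsilon extend them on a sliding clamp, PCNA, that the RFC complex loads. An MII oocyte does not replicate its DNA and makes almost no new RNA, whereas an embryo must replicate in the first cell cycle from stored products and starts its own transcription around the 2-cell stage.

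Levels are given in CPM, the count of a gene per 1000000 counted reads of its library. Daxx itself fell from 92.6 ± 5.67 to 8.14 ± 0.286 CPM (SD, n = 3 each) in knockout oocytes, a log2 change of -3.52 (SE 0.07, adjusted p = 1.24e-11). In embryos it was 39.7 ± 6.14 CPM in controls (n = 3) and 24.2 ± 1.88 CPM in maternal knockouts (n = 2), which did not pass the test (adjusted p = 0.54) but passed with all 11 libraries in 1 fit (adjusted p = 0.035). Libraries held 17978192 to 39798586 counted reads, with the oocyte libraries the deeper ones. Oocyte and 2-cell marker genes followed the labelled stage: the 9 oocyte markers summed to 10755 to 11108 CPM in oocytes and 1618 to 2185 CPM in embryos, and the 6 2-cell markers to 2.39 to 4.52 and 422 to 593 CPM. The 48 genes together took 0.507% to 0.523% of the reads of an oocyte library and 0.447% to 0.488% of an embryo library. Every one of them was above the level that a count of 0 allows (0.0754 to 0.167 CPM, 3 counts) in every library. The lowest value was 1.28 CPM, for Pold1 in the first control embryo library.

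From oocyte to 2-cell embryo, most of the replication genes fell and a smaller group rose. In controls 27 of the 48 were lower in embryos (56.2%) and 12 were higher (25%), at an adjusted p under 0.05 in edgeR's quasi-likelihood test. Over all 15577 genes tested in that comparison, 40.0% were lower and 43.1% were higher. The median log2 change was -0.78 over the 48 genes and 0.07 over all genes tested. Among the 48, 19 fell by at least 2-fold (39.6%, against 28.5% of all genes) and 7 rose by at least 2-fold (14.6%, against 33.0%). These are shares of counted reads per library. Less of a transcript per embryo and more of all other RNA cannot be told apart, nor can fewer cells with a transcript and less of it per cell, since RNA per cell was not measured. Stage, the JF1 paternal genome and embryo culture also came together in every embryo library and cannot be told apart.

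**Figure D1:**
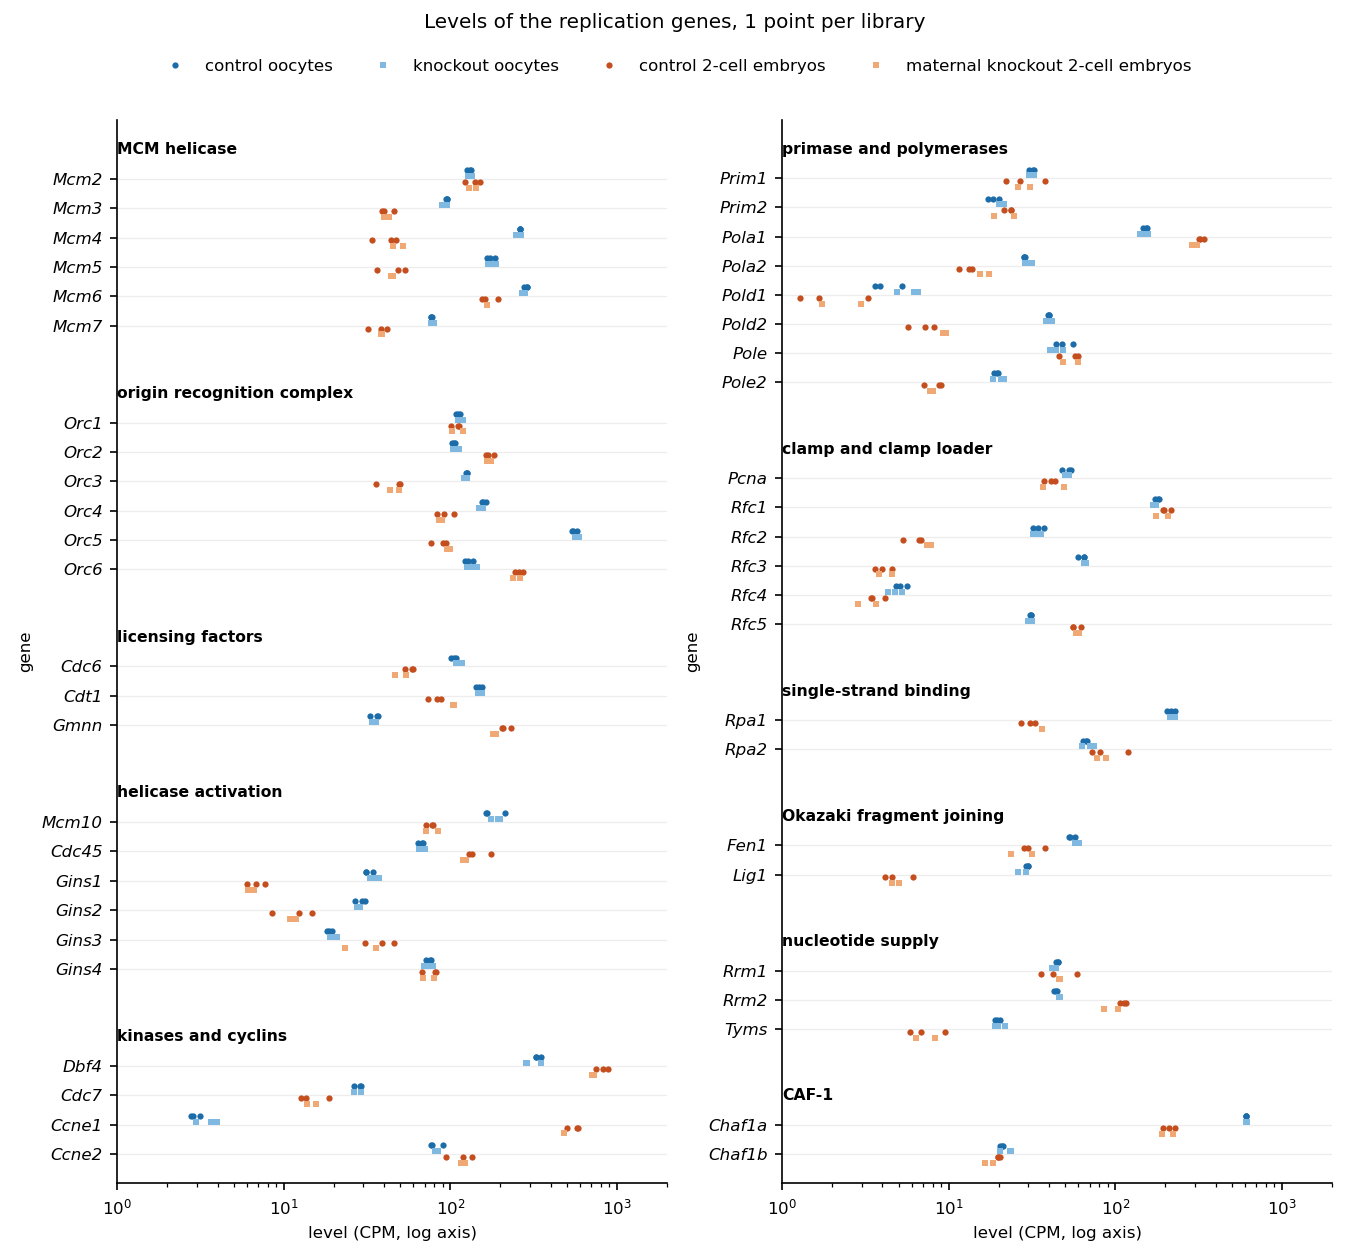
Level of each of the 48 genes in CPM on a log axis, grouped by role, with 1 point per library and a colour and symbol for each of the 4 groups. The control and knockout points of a stage lie close together, while oocyte and embryo points separate for most genes, most widely for Ccne1 (2.93 CPM in control oocytes and 553 CPM in control embryos).

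Many replication genes are known targets of E2F transcription factors, so the DNA around their starts was searched for E2F letters. These were TTTGGCGC, TTTGCCGC, TTTCGCGC and TTTCCCGC, on both strands. Matches on opposite strands can overlap. RefSeq promoter windows of 300 bases (250 before to 50 after the start, build GRCm38.p6) were at hand for 39 of the 48 genes. Such a match lay in the windows of 14 of the 39 (35.9%), against 4.42% of the 11555 coding genes that were tested and had a window. By direction of change in control embryos, it lay in 11 of 23 genes that fell (47.8%), 2 of 10 that rose (20.0%) and 1 of 6 that did not pass (16.7%). In Cdt1, Lig1, Mcm3, Pold1 and Pole2, which are among those that fell, the matches lay only after the start. Among all coding genes with windows the shares were 4.48% of those that fell and 4.58% of those that rose. The letters TTTGAA or TTCGAA are a core of the cell cycle element bound by the DREAM complex. They lay in the windows of 9 of the 39 genes (23.1%), against 17.0% of the coding genes. A match is a description of the sequence, not of binding. The 170 bases before the start are printed here, with E2F matches in capitals, for 2 genes that fell and have a match, for Gins3, which rose and has one, and for Ccne1, the gene with the largest rise.
Mcm6 (chr1:128359706-128359875, minus strand): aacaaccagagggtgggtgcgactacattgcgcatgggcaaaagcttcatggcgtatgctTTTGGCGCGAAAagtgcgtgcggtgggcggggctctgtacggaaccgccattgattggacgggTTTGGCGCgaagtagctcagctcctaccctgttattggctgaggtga
Rfc3 (chr5:151651209-151651378, minus strand): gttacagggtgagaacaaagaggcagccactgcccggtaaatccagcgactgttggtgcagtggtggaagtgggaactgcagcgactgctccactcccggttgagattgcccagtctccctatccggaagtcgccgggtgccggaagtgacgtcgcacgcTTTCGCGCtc
Gins3 (chr8:95633389-95633558, plus strand): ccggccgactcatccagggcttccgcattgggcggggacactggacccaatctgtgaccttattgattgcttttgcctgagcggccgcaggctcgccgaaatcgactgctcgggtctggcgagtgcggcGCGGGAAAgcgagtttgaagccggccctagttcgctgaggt
Ccne1 (chr7:38107491-38107660, minus strand): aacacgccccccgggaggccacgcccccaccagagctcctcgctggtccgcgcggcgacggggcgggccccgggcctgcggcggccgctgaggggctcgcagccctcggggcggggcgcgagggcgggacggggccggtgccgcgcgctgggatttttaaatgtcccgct
The marked stretches of Mcm6 begin 110 and 47 bases before the start. The first of them holds 2 overlapping matches on opposite strands, so the window of Mcm6 holds 3 matches. The printed match of Rfc3 lies 10 bases and that of Gins3 41 bases before the start. The window of Rfc3 holds 2 matches, and the other lies just past the printed bases. None of the E2F letters were found in the window of Ccne1.

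The MCM2-7 genes encode the 6 subunits of the replicative helicase ring, which are needed in equal numbers. In control embryos 5 of the 6 fell and none rose. Mcm4 had the largest fall: it stood at 262, 260.3 and 260.2 CPM in control oocytes and 264, 266 and 249 CPM in knockout oocytes, and at 44.2, 47.1 and 33.9 CPM in control embryos and 45.4 and 51.8 CPM in maternal knockout embryos. All 5 embryo libraries lay far below all 6 oocyte libraries, a log2 change of -2.67 in controls (SE 0.13, adjusted p = 2.88e-09) and -2.46 in knockouts. Mcm5 followed with -1.95 in controls and -2.04 in knockouts. Mcm3 changed by -1.21 and -1.22, Mcm7 by -1.07 and -1.06, and Mcm6 by -0.78 in both. Mcm2 was the exception, at 130.0 ± 4.25 CPM in control oocytes and 138 ± 13.9 CPM in control embryos (log2 change 0.06, 95% interval -0.14 to 0.26). The subunits of 1 ring thus differed by 6.64-fold in how their levels changed, from Mcm4 to Mcm2.

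ORC, the origin binding complex of 6 subunits, split in both directions. Orc6 and Orc2 rose, Orc5, Orc3 and Orc4 fell, and Orc1 did not pass. Orc5 was at 547, 572 and 539 CPM in control oocytes, 558, 589 and 569 CPM in knockout oocytes, 94.4, 90.1 and 76.6 CPM in control embryos and 95.9 and 99.5 CPM in maternal knockout embryos. Its log2 change was -2.69 in controls (SE 0.10, adjusted p = 5.35e-10) and -2.60 in knockouts. Orc6, the smallest ORC subunit and loosely bound, went the other way: it was at 128, 137 and 123 CPM in control oocytes and 126, 137 and 145 CPM in knockout oocytes, and at 260.0, 274 and 245 CPM in control embryos and 264 and 239 CPM in maternal knockout embryos. That is a log2 change of 0.98 in controls (SE 0.09, adjusted p = 6.75e-07) and 0.84 in knockouts, with no overlap between stages. Orc2 changed by 0.69 in controls and 0.61 in knockouts, Orc3 by -1.50 and -1.45, and Orc4 by -0.79 and -0.87. Orc1, the subunit that in somatic cells is limited to part of the cell cycle, stood at 111 ± 3.47 CPM in control oocytes and 108 ± 6.50 CPM in control embryos.

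The licensing factors and their inhibitor moved apart. Cdc6 and Cdt1, which load the MCM ring with ORC, fell, and Gmnn, which encodes the CDT1 inhibitor geminin, rose. Gmnn was at 36.9, 36.4 and 32.8 CPM in control oocytes, 33.9, 34.1 and 35.6 CPM in knockout oocytes, 206, 230.4 and 203 CPM in control embryos and 188 and 181 CPM in maternal knockout embryos. The log2 change was 2.57 in controls (SE 0.10, adjusted p = 5.08e-10) and 2.37 in knockouts, and every embryo library was above every oocyte library. Cdc6 was at 101, 109 and 105 CPM in control oocytes, 114, 118 and 107 CPM in knockout oocytes, 53.1, 59.8 and 58.5 CPM in control embryos and 46.3 and 54.2 CPM in maternal knockout embryos. It changed by -0.90 in controls (SE 0.09, adjusted p = 2.21e-06) and -1.22 in knockouts. Cdt1 was at 155, 148 and 143 CPM in control oocytes, 146, 155 and 151 CPM in knockout oocytes, 73.4, 82.8 and 87.4 CPM in control embryos and 104 and 105 CPM in maternal knockout embryos. It changed by -0.90 in controls and -0.57 in knockouts.

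Helicase activation showed the same mixture. Of Cdc45, Mcm10 and the 4 GINS genes, Cdc45 and Gins3 rose, Mcm10, Gins1 and Gins2 fell, and Gins4 did not pass. Cdc45, which couples GINS to the MCM ring, was at 68.7, 67.2 and 64.1 CPM in control oocytes, 64.5, 70.5 and 64.9 CPM in knockout oocytes, 129, 135 and 175 CPM in control embryos and 119.8 and 125 CPM in maternal knockout embryos (log2 change in controls 1.11, SE 0.11, adjusted p = 2e-06). Gins1 was at 31.2, 34.1 and 31.1 CPM in control oocytes, 32.9, 37.2 and 34.3 CPM in knockout oocytes, 6.01, 7.68 and 6.82 CPM in control embryos and 6.08 and 6.66 CPM in maternal knockout embryos (log2 change in controls -2.26, SE 0.14, adjusted p = 2.9e-08). The stages did not overlap for either gene. Gins3 was at 18.7, 19.4 and 18.2 CPM in control oocytes, 20.9, 20.6 and 18.9 CPM in knockout oocytes, 38.7, 30.9 and 45.9 CPM in control embryos and 35.8 and 23.4 CPM in maternal knockout embryos. It changed by 1.01 in controls and 0.51 in knockouts (adjusted p = 0.014). The second value rests on replicate 2 of the maternal knockout embryos, without which it was 0.19 (adjusted p = 0.17), and without replicate 3 of the knockout oocytes its adjusted p was 0.055. Mcm10 changed by -1.29 in controls and -1.34 in knockouts and Gins2 by -1.32 and -1.34, while Gins4 stood at 74.3 ± 2.82 CPM in control oocytes and 77.0 ± 8.31 CPM in control embryos.

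Among the kinases and cyclins that fire origins, Ccne1, Dbf4 and Ccne2 rose and Cdc7 fell. Ccne1 encodes cyclin E1, the CDK2 partner of the G1/S transition, and rose the most of all 48 genes. It was at 2.85, 3.14 and 2.79 CPM in control oocytes, 3.64, 3.96 and 2.96 CPM in knockout oocytes, 500.2, 578 and 581 CPM in control embryos, and 479 CPM in each of the maternal knockout embryo libraries. The log2 change was 7.53 in controls (SE 0.12, adjusted p = 2.24e-12), a 185-fold rise, and 7.04 in knockouts (SE 0.11, adjusted p = 2.99e-10), a 132-fold rise. Its relative Ccne2, encoding cyclin E2, changed by 0.48 in both comparisons. Dbf4, the activating subunit of the CDC7 kinase, stood at 335 ± 11.8 CPM in control oocytes and 822 ± 71.0 CPM in control embryos, a log2 change of 1.27 in controls and 1.18 in knockouts. Cdc7, the catalytic subunit, was at 28.7, 29.1 and 26.5 CPM in control oocytes, 29.0, 29.0 and 26.5 CPM in knockout oocytes, 18.7, 13.5 and 12.7 CPM in control embryos and 15.6 and 13.9 CPM in maternal knockout embryos. It thus went opposite to its activator, by -0.93 in controls (SE 0.16, adjusted p = 0.0002) and -0.98 in knockouts.

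Of the 8 primase and polymerase genes, 1 rose and 4 fell. Pola1, the catalytic subunit of polymerase alpha that starts every new strand with primase, was at 147, 153 and 154 CPM in control oocytes, 141, 151 and 157 CPM in knockout oocytes, 341, 322 and 318 CPM in control embryos and 309 and 287 CPM in maternal knockout embryos. It rose by 1.09 in controls (SE 0.08, adjusted p = 1.53e-07) and 0.94 in knockouts. Its accessory subunit Pola2 fell, with log2 changes of -1.17 in controls and -0.94 in knockouts, and the primase genes Prim1 and Prim2 did not pass. Prim2 lay near the threshold (log2 change 0.28, adjusted p = 0.056), and under the alternatives its adjusted p ranged from 0.0047 in DESeq2 to 0.18. Both polymerase delta genes among these 8 fell. Pold2, an accessory subunit, was at 39.9, 39.8 and 39.6 CPM in control oocytes, 39.3, 41.5 and 38.6 CPM in knockout oocytes, 5.67, 7.16 and 8.21 CPM in control embryos and 9.21 and 9.61 CPM in maternal knockout embryos, with a log2 change of -2.53 in controls (SE 0.15, adjusted p = 1.42e-08). The catalytic subunit Pold1 was low throughout, between 1.28 and 6.57 CPM, and changed by -1.05 in controls and -1.36 in knockouts. For polymerase epsilon, which copies the leading strand, Pole2 changed by -1.25 in controls and -1.41 in knockouts while the catalytic Pole was at 49.4 ± 5.89 CPM in control oocytes and 54.4 ± 7.29 CPM in control embryos.

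The clamp loader had the largest fall of the 48 genes and a rise within the same complex. Rfc3 was at 64.8, 65.0 and 59.7 CPM in control oocytes, 66.5, 64.8 and 65.1 CPM in knockout oocytes, 4.56, 3.97 and 3.60 CPM in control embryos and 3.83 and 4.59 CPM in maternal knockout embryos. This was a log2 change of -3.99 in controls (SE 0.14, adjusted p = 2.44e-10) and -4.01 in knockouts, about 16-fold in each. Rfc5, another of the small subunits, was at 31.2, 31.3 and 30.8 CPM in control oocytes, 30.1, 31.0 and 31.6 CPM in knockout oocytes, 55.5, 55.7 and 62.1 CPM in control embryos and 60.3 and 58.3 CPM in maternal knockout embryos, a log2 change of 0.87 in controls (SE 0.10, adjusted p = 5.77e-06). The stages were fully separate for both genes. Rfc2 changed by -2.49 in controls and -2.20 in knockouts. Rfc4, at 2.85 to 5.63 CPM in all libraries, changed by -0.53 (adjusted p = 0.023), and lost its call in DESeq2 (adjusted p = 0.066), with RLE factors (adjusted p = 0.056) and without control oocyte replicate 2 (adjusted p = 0.086) or replicate 3 (adjusted p = 0.0502). In knockouts it changed by -0.60 and lost its call in DESeq2 (adjusted p = 0.068) and without knockout oocyte replicate 1 (0.053) or 2 (0.081) or maternal knockout embryo replicate 3 (0.087). The large subunit Rfc1 did not pass (log2 change 0.15, adjusted p = 0.14), but did in DESeq2 (adjusted p = 0.017) and with RLE factors (adjusted p = 0.021). Pcna, the clamp itself, fell slightly in controls (log2 change -0.37, adjusted p = 0.006) and had -0.31 in knockouts (adjusted p = 0.054), where it passed without maternal knockout embryo replicate 3 (log2 change -0.58, adjusted p = 0.0002; 0.0002 to 0.28 over the alternatives).

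RPA coats single-stranded DNA at the fork, and its subunit genes Rpa1 and Rpa2 went opposite ways in controls. Rpa3, which encodes the smallest subunit and belongs to the other lists described below, fell as Rpa1 did. Its log2 change was -1.80 in controls (SE 0.15, adjusted p = 2.97e-07) and -1.63 in knockouts. Rpa1, the large DNA-binding subunit, was at 228, 216 and 203 CPM in control oocytes, 213, 228 and 212 CPM in knockout oocytes, 27.0, 32.8 and 30.8 CPM in control embryos and 36.2 and 36.5 CPM in maternal knockout embryos, a log2 change of -2.86 in controls (SE 0.10, adjusted p = 3.05e-10). Rpa2 was at 66.9, 67.5 and 64.2 CPM in control oocytes, 63.0, 74.2 and 70.0 CPM in knockout oocytes, 72.4, 81.4 and 119.6 CPM in control embryos and 78.1 and 88.3 CPM in maternal knockout embryos. Its log2 change was 0.43 in controls (SE 0.15, adjusted p = 0.019) and 0.22 in knockouts (adjusted p = 0.084). The control call was lost without control embryo replicate 3, the highest library (log2 change 0.20, adjusted p = 0.062), or without control oocyte replicate 3 (adjusted p = 0.053), and the knockout value passed without maternal knockout embryo replicate 2 (adjusted p = 0.011; 0.011 to 0.44 over the alternatives). Both genes that finish lagging strand fragments fell. Lig1, the ligase that seals them, was at 29.7, 30.03 and 29.2 CPM in control oocytes, 26.2, 26.2 and 29.0 CPM in knockout oocytes, 6.12, 4.13 and 4.56 CPM in control embryos and 4.54 and 5.02 CPM in maternal knockout embryos (log2 change in controls -2.62, SE 0.17, adjusted p = 3.68e-08). Fen1, the flap nuclease, changed by -0.80 in controls and -1.13 in knockouts.

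Nucleotide supply and histone loading were also uneven. Rrm2, the regulatory small subunit of ribonucleotide reductase, was at 43.0, 44.1 and 44.7 CPM in control oocytes, 45.9, 46.1 and 46.8 CPM in knockout oocytes, 107, 113 and 116 CPM in control embryos and 86.0 and 104 CPM in maternal knockout embryos, a log2 change of 1.32 in controls (SE 0.09, adjusted p = 5.51e-08). Its catalytic partner Rrm1 stood at 44.9 ± 0.650 CPM in control oocytes and 45.6 ± 11.8 CPM in control embryos. Tyms, which makes thymidylate, went down. It was at 19.4, 19.0 and 20.2 CPM in control oocytes, 19.1, 21.7 and 19.8 CPM in knockout oocytes, 6.79, 5.85 and 9.55 CPM in control embryos and 6.32 and 8.26 CPM in maternal knockout embryos (log2 change in controls -1.42, SE 0.18, adjusted p = 1.31e-05). Chaf1a, the large subunit of CAF-1, which deposits histones H3 and H4 on new DNA, was at 607, 612 and 609 CPM in control oocytes, 621, 613 and 606 CPM in knockout oocytes, 193, 211 and 228 CPM in control embryos and 189.8 and 222 CPM in maternal knockout embryos. It changed by -1.56 in controls (SE 0.08, adjusted p = 7.16e-09). Chaf1b, the middle subunit, was at 20.8 ± 0.511 CPM in control oocytes and 19.9 ± 0.284 CPM in control embryos.

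**Figure D2:**
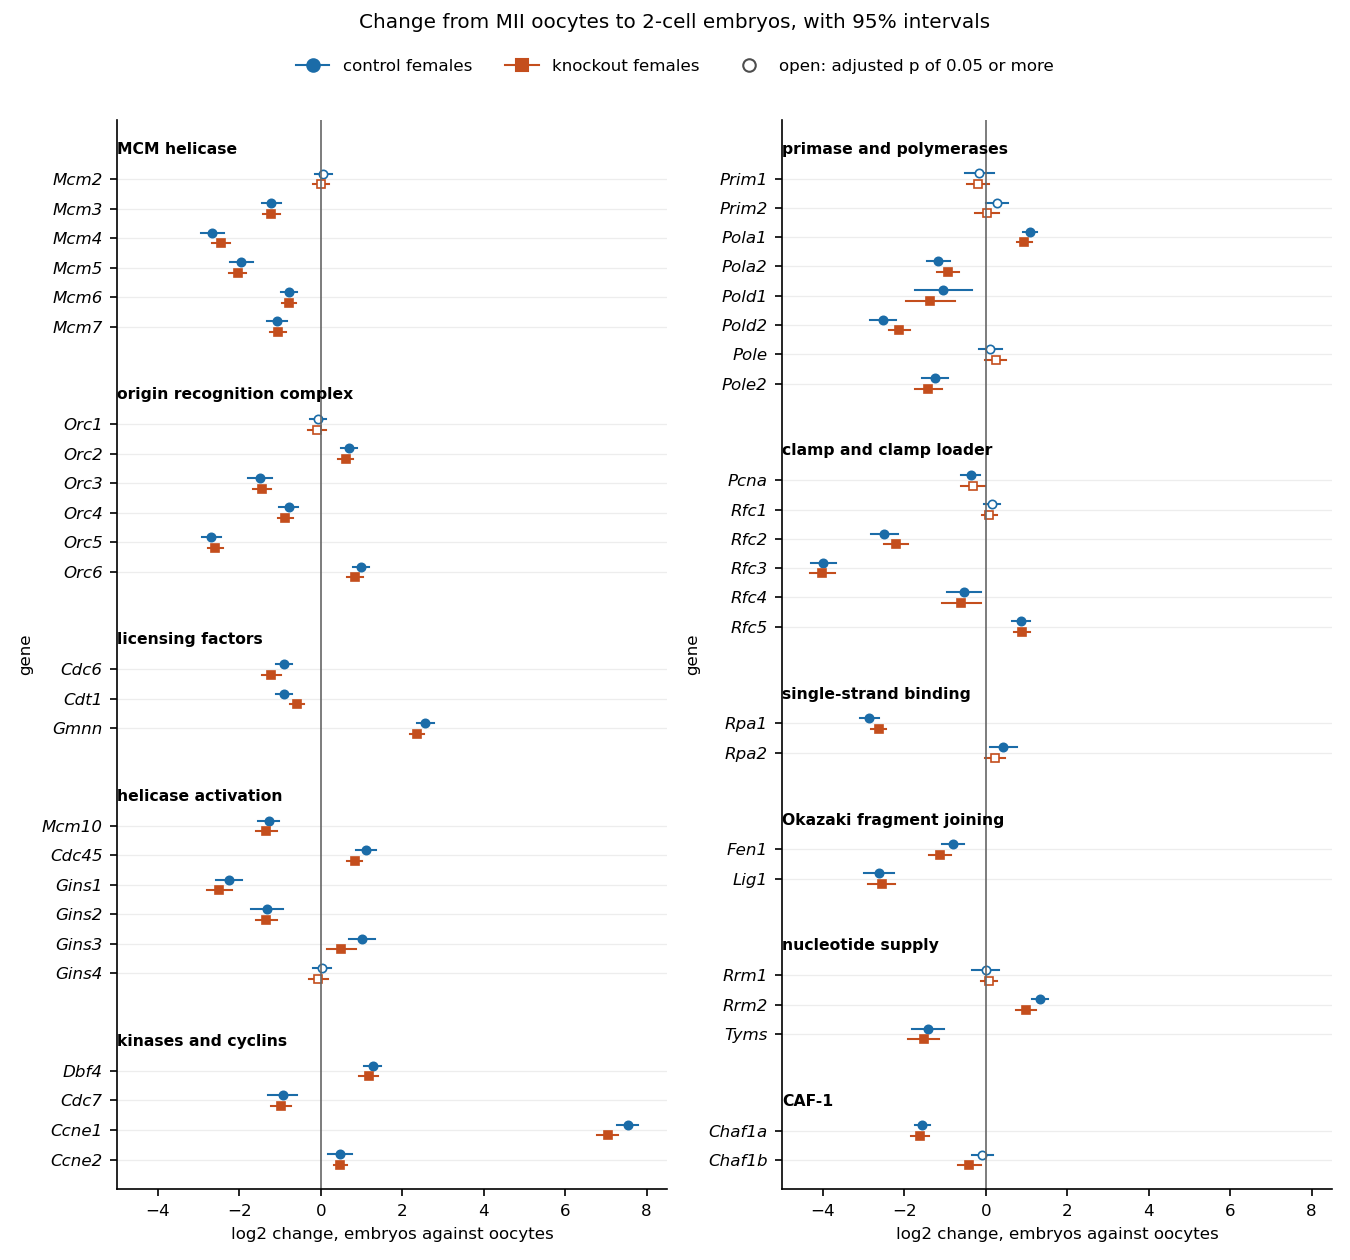
Log2 change from MII oocytes to 2-cell embryos for each of the 48 genes with its 95% interval, in controls (circles) and in knockouts (squares), where open symbols did not pass. The circle and the square of most genes lie together, from Rfc3 at -3.99 and -4.01 to Ccne1 at 7.53 and 7.04, and rises and falls occur within most role groups.

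The stage comparison was made a second time with oocytes and embryos of knockout females, which share no library with the first. In that comparison 11 of the 48 genes rose (22.9%, against 42.5% of the 16592 genes tested) and 27 fell (56.2%, against 37.7%). At least 2-fold, 3 rose (6.25%, against 33.2%) and 20 fell (41.7%, against 26.4%). Passed calls had the same direction in both comparisons for 37 genes, 11 up and 26 down, and none passed in opposite directions. Rpa2 and Pcna passed in controls and not in knockouts, and Chaf1b in knockouts (log2 change -0.40, adjusted p = 0.012) and not in controls. These splits depend on the method, since Pcna also passed in knockouts under 5 of 13 alternatives, limma-voom among them, and Rpa2 under 4 of 13, DESeq2 among them. The differences between the 2 comparisons did not pass for these 3 (adjusted p 0.93 for Chaf1b, 0.96 for Rpa2 and 1 for Pcna). The 8 genes that passed in neither were Mcm2, Orc1, Gins4, Prim1, Prim2, Pole, Rfc1 and Rrm1. Of these, Mcm2, Gins4 and Rrm1 passed under no alternative. Prim2 passed in controls under 6 of 14 alternatives, Pole in knockouts under 4 of 13 and Rfc1 in controls under 2 of 14. Prim1 passed in controls without control embryo replicate 3 (adjusted p = 0.013), and Prim1, Orc1 and Rfc1 passed in knockouts without maternal knockout embryo replicate 3 (adjusted p 0.012, 0.014 and 0.046). Across the 48 genes, the log2 change in knockouts differed from that in controls by a median of 0.09.

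Subunits of 1 complex changed by unequal amounts. The spread between the most fallen and the most risen subunit in controls was 12.7-fold in ORC (Orc5 to Orc6), 9.63-fold in GINS (Gins1 to Gins3), 29.0-fold in RFC (Rfc3 to Rfc5), 9.81-fold between Rpa1 and Rpa2, 4.78-fold in polymerase alpha-primase (Pola2 to Pola1) and 4.61-fold between Cdc7 and Dbf4. These values are differences of change and do not depend on gene length. In knockouts the same spreads were 10.8-fold, 8.02-fold, 29.9-fold, 7.23-fold, 3.68-fold and 4.47-fold. Levels per length, as CPM per kilobase of the deposited gene width (RPKM), put the genes on 1 scale, which depends on the widths used. On it Orc5 was the highest ORC subunit in control oocytes (268 RPKM, Orc6 78.3 RPKM) and Orc6 in control embryos (157 RPKM, Orc5 42.3 RPKM). With these widths, neither Orc1 and Orc5 nor Orc5 and Orc2 differed beyond the spread of the libraries in control embryos. The MCM genes lay between 32.1 RPKM (Mcm7) and 72.7 RPKM (Mcm4) in control oocytes and between 11.6 RPKM (Mcm4) and 41.0 RPKM (Mcm2) in control embryos, where Mcm4, Mcm5, Mcm3 and Mcm7 overlapped as neighbours and so did Mcm6 and Mcm2. The ratio of the highest to the lowest MCM gene was 2.27 in control oocytes and 3.53 in control embryos with these widths. With exon lengths from GENCODE M21 it was 4.19 and 4.30, so a widening of that ratio depends on the lengths used. The overlaps above were computed with the deposited widths only. With GENCODE lengths, Mcm7 was the lowest and Mcm6 the highest MCM gene in control embryos. Orc5 and Orc6 stayed the highest ORC genes in control oocytes and control embryos. The GENCODE length was 2.99 times the deposited width for Orc5, against 1.15 for Orc1 and 1.08 for Orc2.

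**Figure D3:**
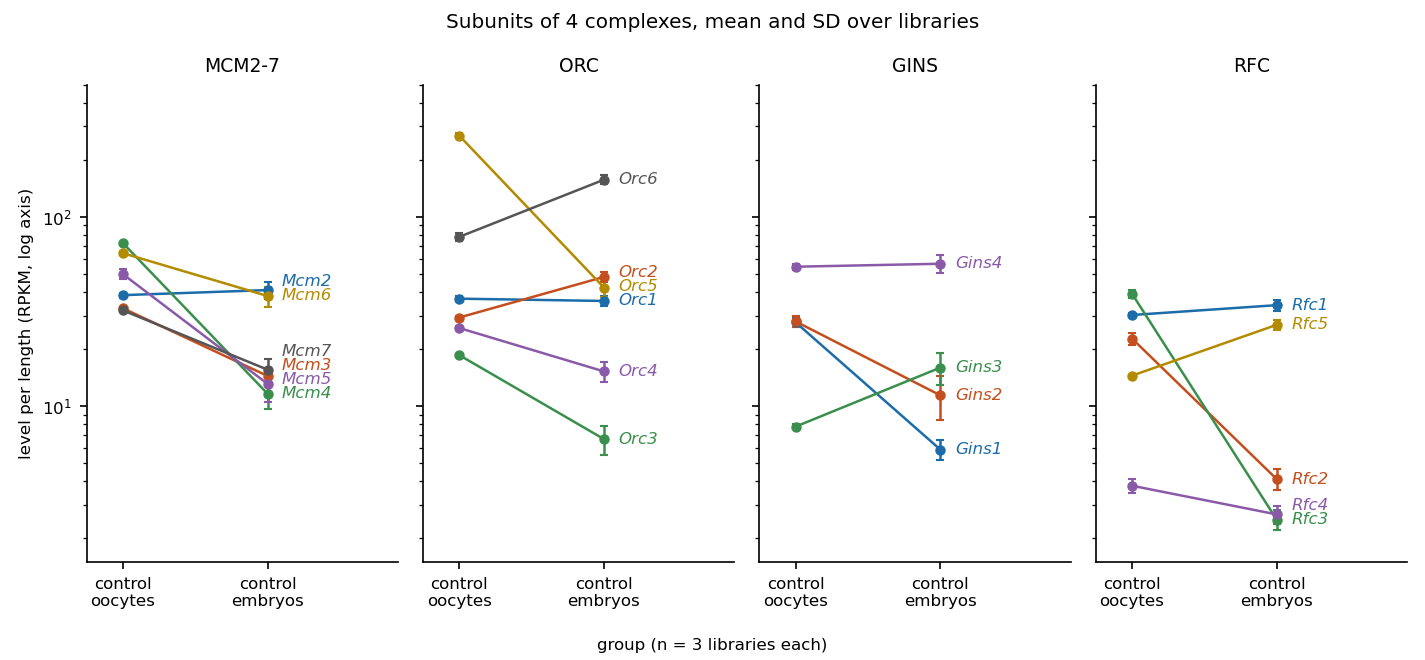
Level per length of the subunits of MCM2-7, ORC, GINS and RFC in control oocytes and control 2-cell embryos, as mean and SD over 3 libraries in RPKM on a log axis. Lines cross in all 4 complexes, as for Orc5 (268 to 42.3 RPKM) and Orc6 (78.3 to 157 RPKM).

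Several partners changed places. Within each library, the ratio of Gmnn to Cdt1 per length was 0.680 ± 0.025 in control oocytes, 0.655 ± 0.026 in knockout oocytes, 7.55 ± 0.774 in control embryos (SD, n = 3 each) and 5.04 ± 0.151 in maternal knockout embryos (n = 2). Geminin RNA was thus the lower of the pair in all 6 oocyte libraries and the higher in all 5 embryo libraries. The ratio of Ccne1 to Ccne2 went from 0.059 ± 0.002 in control oocytes to 8.10 ± 2.01 in control embryos, and that of Rpa2 to Rpa1 from 0.451 ± 0.018 to 4.43 ± 1.12. In the opposite direction, Orc5 to Orc6 went from 3.43 ± 0.082 to 0.269 ± 0.021, Rfc3 to Rfc5 from 2.71 ± 0.111 to 0.094 ± 0.016, and Gins1 to Gins3 from 3.55 ± 0.096 to 0.382 ± 0.116. All 6 ratios crossed 1 in both genotypes, and also with the GENCODE lengths, and were chosen for that out of 12 pairs computed. Mcm4 to Mcm2 crossed as well, from 1.89 ± 0.056 to 0.287 ± 0.067. The other 5 pairs kept their order. Dbf4 to Cdc7 went from 10.5 ± 0.929 in control oocytes to 49.5 ± 9.67 in control embryos, Pola1 to Pola2 from 4.07 ± 0.087 to 19.5 ± 1.88, and Rrm2 to Rrm1 from 1.80 ± 0.051 to 4.67 ± 0.967. Chaf1a to Chaf1b went from 20.6 ± 0.536 to 7.46 ± 0.528 and Pold2 to Pold1 from 21.5 ± 4.16 to 8.33 ± 2.37. The size of a ratio depends on the lengths used, while its fold change between stages does not. With GENCODE lengths Dbf4 to Cdc7 was 5.73 and 27.0, Orc5 to Orc6 was 1.71 and 0.134, Mcm4 to Mcm2 was 3.89 and 0.593, and Rrm2 to Rrm1 was 3.9 and 10.1. With 3 libraries against 3, an exact permutation test of a single ratio cannot give a two-sided p under 0.10, so no p is given.

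**Figure D4:**
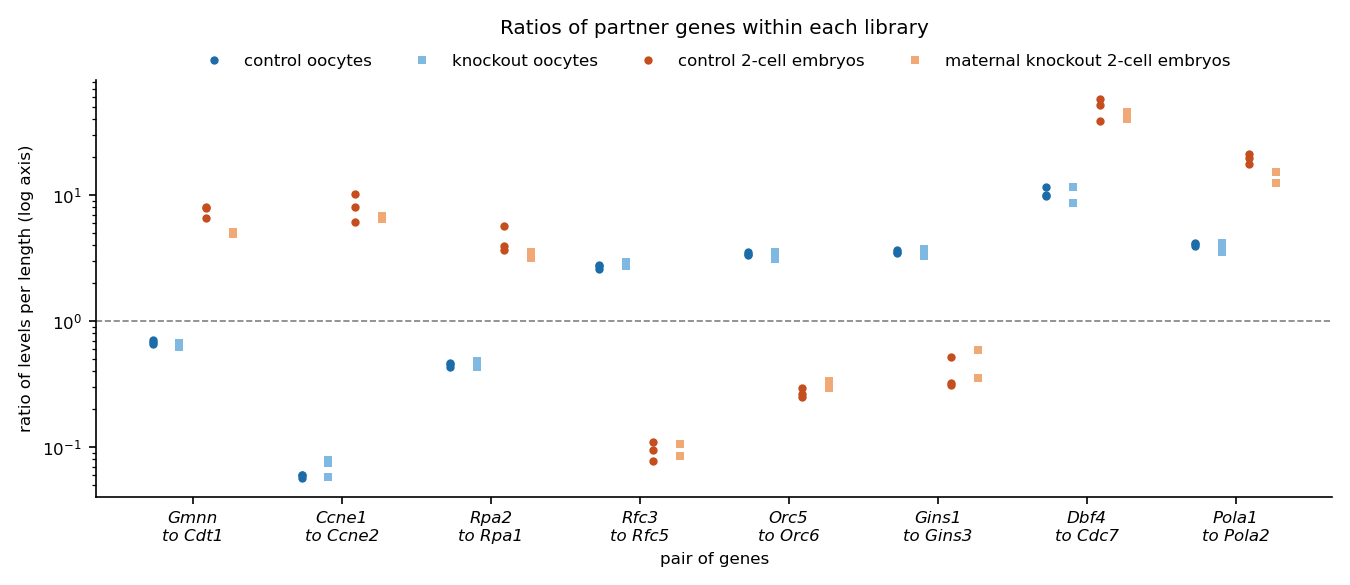
Ratio of the levels per length of 8 pairs of partner genes, with 1 point per library on a log axis and a dashed line at 1. Oocyte and embryo points lie on opposite sides of the line for the first 6 pairs, as for Gmnn to Cdt1 (0.680 in control oocytes, 7.55 in control embryos), and on the same side for Dbf4 to Cdc7 and Pola1 to Pola2.

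Other replication genes, taken from 4 lists, were set beside the 48. Over all 15577 genes tested in controls, 43.1% rose and 40.0% fell. Of 30 other fork and initiation genes, 11 rose (36.7%) and 15 fell (50.0%) in control embryos. The smallest p-values belonged to Chtf8, part of an alternative clamp loader (1.05 to 58.0 CPM, log2 change 5.75), Timeless, a fork protection gene (229 to 58.1 CPM, -2.00), and Pold3, a polymerase delta subunit (479.6 to 182 CPM, -1.42). Of 13 other nucleotide supply genes, 7 rose and 5 fell, led by Shmt1, which feeds one-carbon units to thymidylate synthesis (0.341 to 106 CPM, log2 change 8.26), Nme2, a nucleoside diphosphate kinase (0.304 to 33.8 CPM, 6.77), and the salvage kinase gene Dck (1.36 to 25 CPM, 4.18). The list of E2F, RB and G1/S control genes, of which 31 of 32 were tested, had 18 that rose and 8 that fell. It was led by the atypical repressor E2f7 (0.658 to 60.3 CPM, log2 change 6.48), the DREAM subunit Lin37 (42.8 to 2.51 CPM, -4.11) and the phosphatase gene Cdc25a (206 to 53.3 CPM, -1.97). Of 13 genes of replication-coupled chromatin, 3 rose and 9 fell, led by the histone gene activator Npat (49.4 to 262 CPM, 2.38), the histone chaperone Rbbp7 (1051 to 283 CPM, -1.92) and Uhrf1, which brings DNA methylation to new strands (818 to 131 CPM, -2.66). The shares that rose and fell were 53.8% and 38.5% of the nucleotide supply list and 58.1% and 25.8% of the E2F list. They were 23.1% and 69.2% of the chromatin list. The median log2 changes of the 4 lists in controls were -0.26, 0.34, 0.61 and -0.37 in that order, against 0.07 over all genes.

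A sum of markers of other cells and the share of reads on Lars2 also differed between the stages. The 18 granulosa and cumulus markers summed to 104 to 117 CPM in oocyte libraries and 302 to 383 CPM in embryo libraries, with 12 of the 18 under 1 CPM in control oocytes and 10 in control embryos. Of the 18, Foxl2, Ptx3 and Fst were at 0 in all control oocyte libraries, and Ptx3, Amhr2 and Fst in all knockout oocyte libraries. Inha and Fst were at 0 in all control embryo libraries, and Foxl2 and Inha in all maternal knockout embryo libraries. Each of the other markers had reads in at least 1 library of the group concerned. The share of reads on Lars2 was 0.142% to 0.201% in oocyte libraries and ranged from 0.482% to 1.85% in embryo libraries of both genotypes. Which markers carry the higher sum in embryos, and its source, was not tested. The part of that sum or of Lars2 in the stage changes was not tested either.

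The counts of some genes are less certain, since the treatment of strand and shared reads in the counting was not given in the sources used here. In GENCODE M21, exons of a gene on the opposite strand cover 84.2% of the exon bases of Fen1 and 67.3% of Gins2. They cover 52.5% of Chaf1a, 29.8% of Orc2 and smaller parts of Ccne2, Rfc2, Rfc4, Orc1, Rfc5, Mcm7, Orc4, Orc6, Cdc45, Lig1 and Pole. Exons of a gene on the same strand cover 8.5% of Pole2, 3.89% of Mcm7, 1.46% of Orc5 and 0.79% of Rpa1. Near-identical transcripts of another locus exist for Pcna (99.2% identity over 781 bases), Mcm7 (97.7% over 2157 bases), Rfc5 (96.2% over 1020 bases), Cdc6 (95.2% over 1528 bases) and Rrm2 (95.5% over 419 bases). Tyms shares stretches of up to 361 bases with transcripts of many other genes, the closest at 97.7% identity over 355 bases. Mcm4, Mcm5, Orc5, Gmnn, Ccne1, Rfc3 and Rpa1, whose changes are among the largest, have neither an opposite-strand overlap nor a near-identical transcript. In GRCm38.p6 the genes with the largest rise and falls lie at chr7:38097984-38107490 (Ccne1), chr5:151642817-151651208 (Rfc3), chr11:75300259-75348454 (Rpa1), chr5:22486480-22550338 (Orc5) and chr16:15623897-15637400 (Mcm4), and Gmnn lies at chr13:24751845-24761937.

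Knockout and control oocytes differed little in the replication genes. None of the 48 passed in edgeR's test, where 83 of 14235 genes did (0.583%), and none passed in DESeq2 or limma-voom. The median log2 change was -0.01, and 1 of the 48 had an unadjusted p under 0.05 in edgeR, against 1464 of the 14235 genes. That gene was Pold1, the catalytic subunit of polymerase delta, at 3.87, 3.59 and 5.26 CPM in control and 6.15, 6.57 and 4.90 CPM in knockout oocytes, with overlapping groups (log2 change 0.45, SE 0.17, adjusted p = 0.37). The next smallest p-values belonged to Lig1 (-0.15, SE 0.07, adjusted p = 0.53) and Cdc6 (0.09, SE 0.05, adjusted p = 0.57), whose library values are given above. The 95% interval of the change lay within 1.5-fold either way for 46 of the 48 genes, all but Ccne1 and Pold1, and within 2-fold for all 48. Spermatid markers differed between these groups, with the 11 markers summing to 6.59 to 7.0 CPM in control and 10.1 to 12.6 CPM in knockout oocytes, of which Tnp1, Tnp2, Smcp and Spata18 were at 0 in all 6 libraries. Their part in these values was not tested.

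In 2-cell embryos none of the 48 passed either, where 4 of 15414 genes did (0.0260%), and none passed in DESeq2 or limma-voom. The median log2 change was -0.06, with 15 of the 48 above 0, against 50.4% of all genes. An unadjusted p under 0.05 was reached by 1 of the 48 and by 491 of the 15414 genes, or by 11 of the 48 and 1511 of 17018 genes with all libraries in 1 fit, where again none of the 48 passed after adjustment. The 1 gene was Cdt1, the licensing factor, with its 2 maternal knockout embryo libraries at 104 and 105 CPM above all 3 control embryo libraries (log2 change 0.33, SE 0.15, adjusted p = 1.00). Gins3 (-0.42, SE 0.20) and Cdc45 (-0.29, SE 0.15) came next, each with an adjusted p of 1.00. Cdc45 was lower in both maternal knockout libraries than in all controls, and Gins3 overlapped. The median over the 48 was -0.02 without maternal knockout embryo replicate 2 and -0.14 without replicate 3, so its size rests on single libraries. With 2 libraries in 1 group the intervals were wide: they lay within 1.5-fold for 31 of the 48 genes and within 2-fold for all 48.

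**Figure D5:**
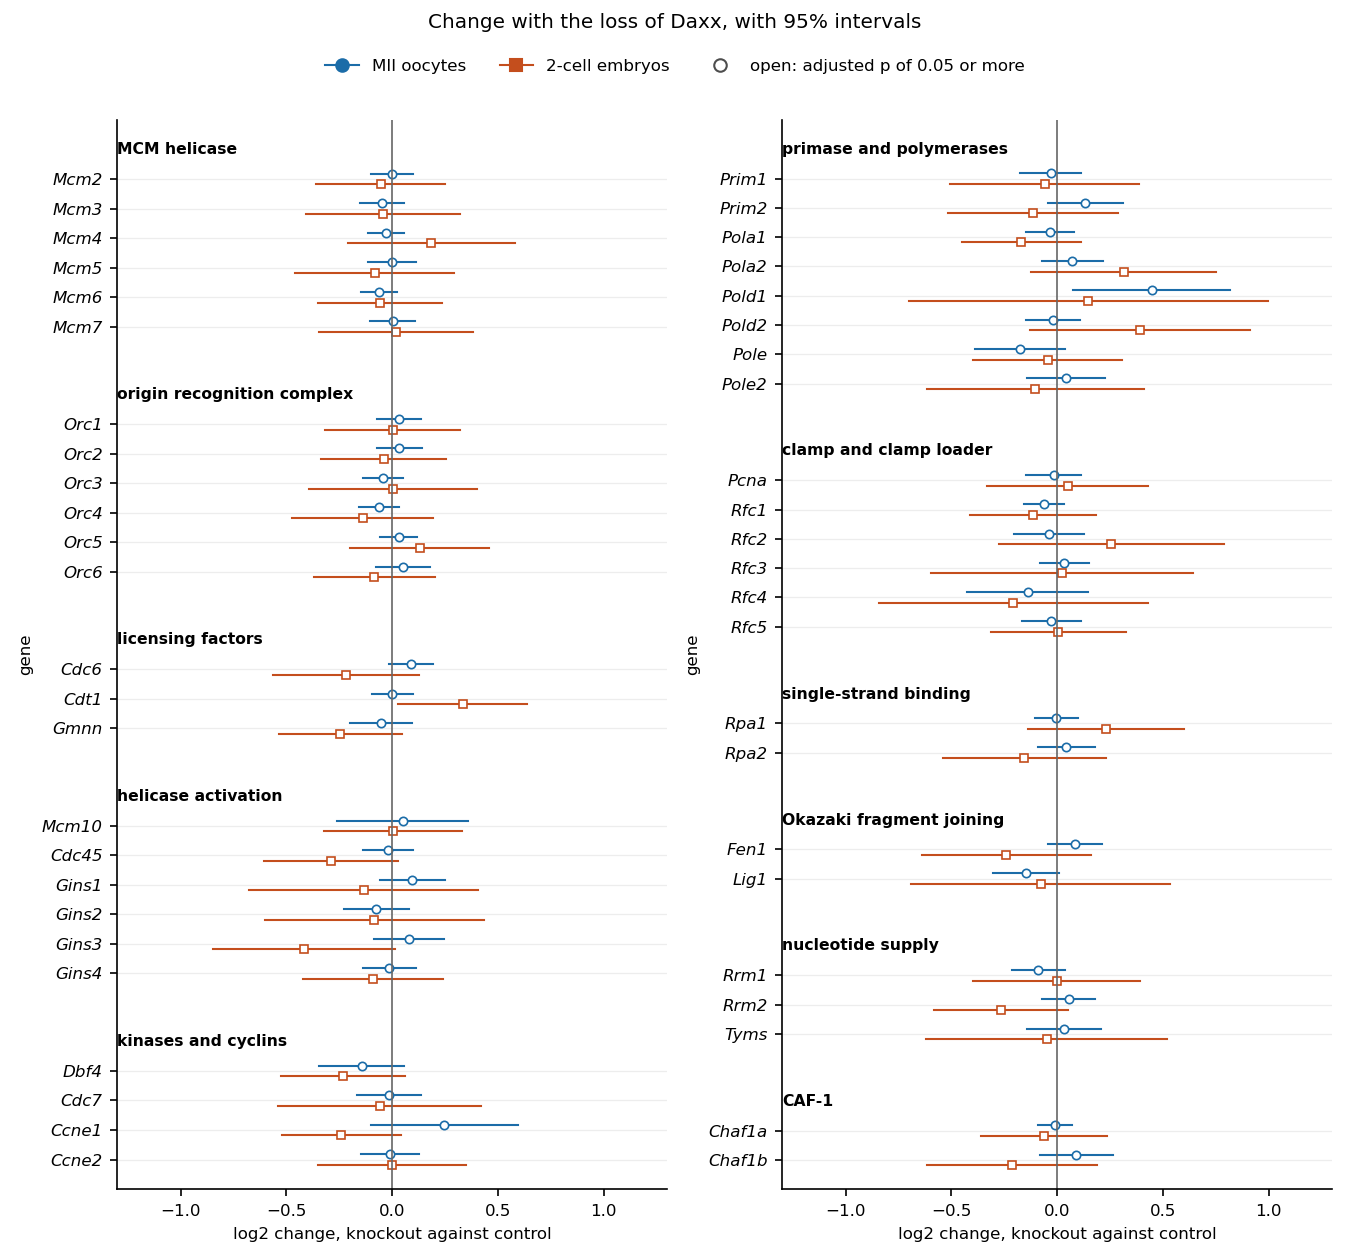
Log2 change with the loss of Daxx for each of the 48 genes with its 95% interval, in MII oocytes (circles) and in 2-cell embryos (squares). All symbols are open, since none passed, and the intervals are wider in embryos (median half-width 0.37) than in oocytes (0.13).

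The effect of the knockout was also compared between the stages in 1 fit of all 11 libraries. None of the 48 differed, where 2 of 17018 genes did (0.0118%). An unadjusted p under 0.05 was reached by 6 of the 48, against 920 of the 17018 genes. The difference was above 0 for 15 of the 48, against 49.1% of all genes. Its median over the 48 was -0.06, and ranged from -0.12 to -0.01 with 1 library left out. DESeq2 and limma-voom called none either. The smallest p-value belonged to Ccne1 (difference -0.50, SE 0.15, adjusted p = 0.91), which was at 0.25 in knockout oocytes and -0.24 in maternal knockout embryos. Cdt1 (0.32, SE 0.12) and Rrm2 (-0.33, SE 0.14) followed, each with an adjusted p of 0.91. For these 3 genes the interval of the difference reached at most -0.82, 0.57 and -0.62 on the log2 scale.

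Outside the 48, 1 of the 30 other fork and initiation genes passed in oocytes. None passed there among 13 nucleotide supply, 30 E2F, RB and G1/S and 13 chromatin genes tested. Over all 14235 genes tested in oocytes the share was 0.583%. In embryos none of the 4 lists had a gene that passed, where 0.0260% of all genes did. Rpa3, which encodes the smallest RPA subunit, was at 19.8, 21.5 and 20.0 CPM in control and 25.4, 27.5 and 28.6 CPM in knockout oocytes, and was singled out after its values were seen. The groups did not overlap, and the log2 change of 0.39 (SE 0.08) had an adjusted p of 0.0486, which rose to between 0.052 and 0.24 when any 1 of the 6 libraries was left out, to 0.0502 with RLE factors and to 0.47 with all libraries in 1 fit. In embryos it was at 5.28, 6.37 and 6.30 CPM in controls and 9.40 and 8.69 CPM in maternal knockouts (log2 change 0.56, SE 0.24), which did not pass.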

How the data were processed

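The authors deposited whole-number read counts for 24421 genes in 11 libraries, with a width in bases per gene. STAR 2.5.0a and the build GRCm38 (mm10) are named in the submitters' processing notes, and the counting program was not given in the sources used here. Of the identifiers, 24387 matched a RefSeq table (GRCm38.p6). Per the labels' protocols libraries were made with the SoLo RNA-Seq system. The labels do not say whether replicate pools came from different females, so p-values measure only the spread between these libraries. No pair of replicates agreed within sampling noise.

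Levels are counts per 1000000 counted reads (CPM) or, between genes, RPKM from the deposited width. Intervals and floors on counts cover counting error only. Tests used edgeR 4.0.16 (R 4.3.3; filterByExpr, TMM factors, robust quasi-likelihood F test), with Benjamini-Hochberg adjustment over all genes tested and a threshold of 0.05. The SE is the log2 change divided by the square root of F, and 95% intervals of changes are unadjusted. The edgeR test of each comparison was run on simulated counts, and the other tools were not. The outcome of that run is not given here, so it lends no support to calls near the threshold. Genes named in the genotype comparisons are the 3 with the smallest p in each, and in the other lists the 3 with the smallest p. Library values are given for the largest rise and fall of each role group. The members and lists were chosen with earlier results of these data known. Alternatives were DESeq2 1.42.0, limma-voom (limma 3.58.1), RLE factors, library totals, other low-count filters, all libraries in 1 fit, a replicate block, each library left out, and GENCODE exon lengths.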

Additional observations from a re-analysis of the deposited data

Results flagged for a closer look

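The effect of the knockout on Daxx itself differed between the stages: the log2 change was 2.76 higher in embryos than in oocytes (adjusted p = 3.38e-07 in edgeR's test of the difference over all 11 libraries). None of the 48 replication genes differed in that test.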

How the results depend on the processing

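No call was made among the 48 genes in the genotype comparisons or their difference under any alternative run. In the stage comparisons 10 to 14 of them rose and 26 to 29 fell, and 39 of 48 genes in controls and 37 of 48 in knockouts kept direction and side of the threshold under every alternative run. The genes whose sign turned had small changes in the comparison concerned, and the cause was not tested. In controls, DESeq2 and RLE factors gave log2 changes of 0.0347 and 0.035 for Orc1, 0.0943 and 0.0948 for Rrm1 and 0.0093 and 0.0094 for Chaf1b. Rrm1 was 0.0262 with library totals and 0.0061 with the filter of 1 CPM. With 1 library left out, Gins4 ranged from -0.0297 to 0.0969 and Rrm1 from -0.2148 to 0.1268. In knockouts, Mcm2 was -0.0053 in limma-voom, -0.0215 without a low-count filter, -0.0242 with all libraries in 1 fit and -0.0302 with the replicate block. Gins4 was 0.0283 in DESeq2 and 0.0284 with RLE factors, and Prim2 was -0.0001 with all libraries in 1 fit. With 1 library left out, the ranges were -0.1136 to 0.0874 for Mcm2, -0.2524 to 0.0174 for Orc1, -0.2102 to 0.0603 for Gins4, -0.1643 to 0.1694 for Prim2 and -0.0156 to 0.1671 for Rfc1. Where 1 embryo library of a group remained, it was assumed to vary like the other group.

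The median of the 48 in knockouts was -0.6045 with DESeq2 and with RLE factors. Over all genes, oocyte calls by genotype were 83, and 227 in DESeq2, 183 without the low-count filter, 22 with all libraries in 1 fit, and from 21 (without control oocyte replicate 2) to 157 (without control oocyte replicate 3). Embryo calls were 4, and 10 in DESeq2, 2 with library totals, 32 without the filter, 13 with all libraries in 1 fit, and from 0 (without control embryo replicate 1 or 3) to 8 (without maternal knockout embryo replicate 3). Calls of the difference were 2, and 7 in DESeq2, 1 in limma-voom and 1 to 3 with 1 library left out.

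Same-numbered libraries did not deviate together (correlations -0.23, 0.26 and 0.09 in oocytes, -0.21 and -0.08 in embryos), so the numbers were not taken as pairs. Between control and knockout libraries of different number, correlations ranged from -0.42 to 0.32 in oocytes and from -0.12 to 0.21 in embryos. Whether these libraries shared some other factor was not tested. With a replicate block the genotype calls were 110 in oocytes, 2 in embryos and 3 for the difference, and Pcna passed in the knockout stage comparison (log2 change -0.33, adjusted p = 0.049). Depth limits Pold1, Rfc3, Rfc4 and Lig1 most, at 1.28 to 6.12 CPM in embryos.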
